A study of Mus musculus with 6 samples.

Results

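The nuclear genes for subunits of the mitochondrial respiratory chain and ATP synthase were compared between VPA-treated (valproic acid) and control murine prostate cancer cells. Members were all genes whose symbol starts with Ndufa, Ndufb, Ndufc, Ndufs or Ndufv and a digit, Sdha to Sdhd, Uqcr, the Cox4 to Cox8 subunits, and Atp5. The rule took 81 of the 19938 genes tested, each by 1 probe set. Of these, 35 belong to complex I by symbol, 4 to complex II, 8 to complex III, 17 to complex IV and 17 to complex V. Cox7c and Ndufb4 were read only by probe sets that carry a further symbol, so they have no value among the members. The rule used symbols only and no measured value.

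The VPA group and the control group had 3 samples each, and an Affymetrix Mouse Gene 1.0 ST array was run for each sample. Valproic acid, an antiepileptic fatty acid, blocks class I histone deacetylases, enzymes that take acetyl groups off histones. The sample titles and the series design give the tumour type and the treatment. Other fields of the same samples name differentiated embryonic stem cells of strain 129SV for the arrays titled control, and undifferentiated embryonic stem cells of a Stra8-EGFP or Rosa26 background for the arrays titled vpa. The groups are called by their titles here, and every difference between VPA and control rests on those titles. The labels name no dose, no duration and no cell line. The samples are numbered as biological replicates, but whether they came from separate cultures is not stated, so p-values measure the spread between these samples.

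The respiratory chain passes electrons from NADH through complex I, or from succinate through complex II, to ubiquinone, then through complex III and cytochrome c to complex IV, which reduces oxygen to water. Complexes I, III and IV pump protons across the inner mitochondrial membrane, and complex V lets them flow back to make ATP. Most subunits are encoded in the nucleus, while a small set of complex I, III, IV and V subunits comes from mitochondrial DNA. Tumour cells of the prostate make use of this pathway, and several complex IV subunits have isoforms that are typical of heart, muscle, lung or testis. The factors NRF1, GABP (an ETS family protein) and YY1 are known activators of many of these nuclear genes.

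The start sites of 66 members could be matched to RefSeq promoters (build GRCm38.p6), which gave 71 windows of 300 bases, from 250 before to 50 after the start. Windows were searched on both strands for GCATGCGC (NRF1), CCGGAAG (ETS), AAGATGGC (YY1) and GGGCGG (Sp1). The NRF1 letters are part of a palindrome, so overlapping matches on opposite strands can occur in a single stretch. Below are 230 bases, 200 before and 30 after the start, for a promoter of each complex that carries these letters, and for Cox6b2, the testis isoform of a complex IV subunit, beside its somatic form Cox6b1. Letters are 5′ to 3′ on the strand of the gene, and capitals mark NRF1, ETS and YY1 letters read on either strand.
Ndufs3, chr2:90904692-90904921, minus strand: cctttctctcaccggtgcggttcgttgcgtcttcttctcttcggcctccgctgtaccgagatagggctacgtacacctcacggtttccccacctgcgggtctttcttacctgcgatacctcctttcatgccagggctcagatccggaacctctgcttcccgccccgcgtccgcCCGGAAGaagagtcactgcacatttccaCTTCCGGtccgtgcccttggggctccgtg
Sdhb, chr4:140961071-140961300, plus strand: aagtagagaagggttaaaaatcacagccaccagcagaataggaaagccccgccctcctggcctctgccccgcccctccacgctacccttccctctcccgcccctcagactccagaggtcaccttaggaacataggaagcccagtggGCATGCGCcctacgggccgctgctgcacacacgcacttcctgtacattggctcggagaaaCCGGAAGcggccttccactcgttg
Uqcr11, chr10:80406792-80407021, minus strand: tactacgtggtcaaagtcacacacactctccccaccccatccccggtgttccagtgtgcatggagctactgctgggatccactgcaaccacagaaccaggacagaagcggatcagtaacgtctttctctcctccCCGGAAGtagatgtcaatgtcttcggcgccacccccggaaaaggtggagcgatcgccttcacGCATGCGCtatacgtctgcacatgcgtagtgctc
Cox6a1, chr5:115348929-115349158, minus strand: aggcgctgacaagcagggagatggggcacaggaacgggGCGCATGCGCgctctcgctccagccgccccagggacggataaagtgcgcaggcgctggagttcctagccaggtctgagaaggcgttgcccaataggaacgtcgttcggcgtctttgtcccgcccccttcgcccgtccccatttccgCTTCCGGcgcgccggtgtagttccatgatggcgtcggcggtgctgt
Atp5k, chr5:108434370-108434599, minus strand: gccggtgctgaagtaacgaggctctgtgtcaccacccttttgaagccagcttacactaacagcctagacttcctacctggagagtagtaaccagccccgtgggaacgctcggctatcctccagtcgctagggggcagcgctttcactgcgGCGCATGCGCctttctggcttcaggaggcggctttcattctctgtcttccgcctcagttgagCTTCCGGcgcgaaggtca
Cox6b2, chr7:4753065-4753294, minus strand: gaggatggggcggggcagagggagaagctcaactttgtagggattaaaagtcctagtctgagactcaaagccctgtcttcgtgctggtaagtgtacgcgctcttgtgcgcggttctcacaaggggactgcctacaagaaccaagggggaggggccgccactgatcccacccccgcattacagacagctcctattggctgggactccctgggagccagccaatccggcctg
Cox6b1, chr7:30626085-30626314, minus strand: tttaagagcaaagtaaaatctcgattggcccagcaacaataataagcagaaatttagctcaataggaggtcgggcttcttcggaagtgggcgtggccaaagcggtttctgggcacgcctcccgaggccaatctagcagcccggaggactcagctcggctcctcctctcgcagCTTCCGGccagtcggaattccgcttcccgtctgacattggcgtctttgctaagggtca

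Cox6a1 and Atp5k each held a capital run in which the NRF1 letters read on both strands, together with ETS letters near the start. Sdhb and Uqcr11 also held both kinds, Ndufs3 held ETS letters at 2 places, and Cox6b1 held them once. The Cox6b2 window held none of the 3 kinds. Over all member windows, NRF1 letters stood in 10 of 71 (14.1%), against 3.78% of the 19177 windows of genes tested on the arrays. ETS letters stood in 17 (23.9%, against 12.1%) and YY1 letters in 10 (14.1%, against 3.18%). Sp1 letters stood in 28 (39.4%, against 49.2%). At least 1 of NRF1, ETS and YY1 stood in 31 windows (43.7%, against 17.5%). Complex I held 7 of the 10 windows with YY1 letters, and complex V held the other 3. The median CpG count per window was 19 in members and 15 in genes tested, and the median GC content was 57.3% in both. A match to these letters is a description of the sequence, not a site shown to be bound.

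**Figure D1:**
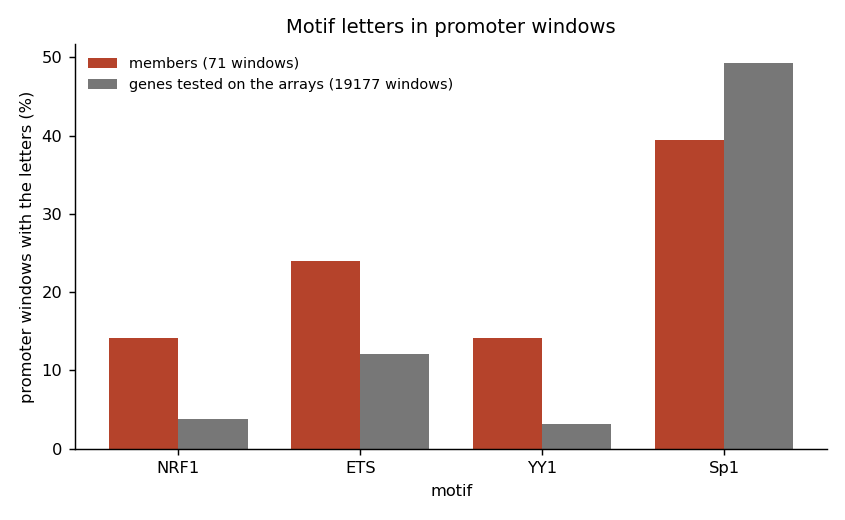
Share of promoter windows (percent, vertical axis) that hold the letters of each motif on either strand, for the 71 windows of respiratory chain members (left bars) and the 19177 windows of genes tested (right bars). Member windows held NRF1, ETS and YY1 letters in 14.1%, 23.9% and 14.1%, against 3.78%, 12.1% and 3.18% of windows of genes tested, while Sp1 letters were in 39.4% and 49.2%.

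The comparison of VPA with control asks whether transcripts of these subunits differ in treated cells. No member passed the test in either direction. In limma's moderated test, 0 of 81 members were higher, 0 were lower and 81 did not pass at an adjusted p under 0.05, where 467 of all 19938 genes passed (2.34%, 341 higher and 126 lower). The smallest adjusted p of a member was 0.128, for Cox6b2. At an unadjusted p under 0.05 there were 7 of 81 members (8.64%), 5 higher and 2 lower, against 18.1% of all genes tested. The 3 VPA arrays lay wholly above or below the 3 control arrays in 8 of 81 members (9.88%), against 23.1% of all genes. Of those 8, Cox6b2, Uqcrfs1, Ndufs4, Cox6a1, Cox7a2l and Atp5d lay above and Cox7b2 and Atp5j2 below. Both shares of members were below the background.

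Differences of members were small. The VPA minus control difference (log2) ran from -0.34 for Ndufs3 to 0.35 for Ndufa1, with a median of -0.02 against a median of -0.04 over all genes tested (range -1.34 to 1.85). It was positive in 33 members and negative in 48, and the share above 0 was 40.7%, against 41.4% of all genes. The SD of the differences was 0.139 among members and 0.215 among all genes, while the median standard error was 0.102 and 0.101. The difference was smaller than the pooled SD of the arrays in 49 of 81 members, and in 10195 of all 19938 genes. The 95% interval lay within a 2-fold change in both directions for all 81 members, and for 19603 of all 19938 genes. It lay within a 1.5-fold change for 77 members (95.1%, against 89.1% of all genes). Ndufa1, Ndufs3, Ndufv3 and Cox7a2 were the 4 exceptions, with outer bounds down to 0.634-fold and up to 1.61-fold. RMA sets all arrays to one distribution, so a shift shared by most transcripts would not show in these values.

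**Figure D2:**
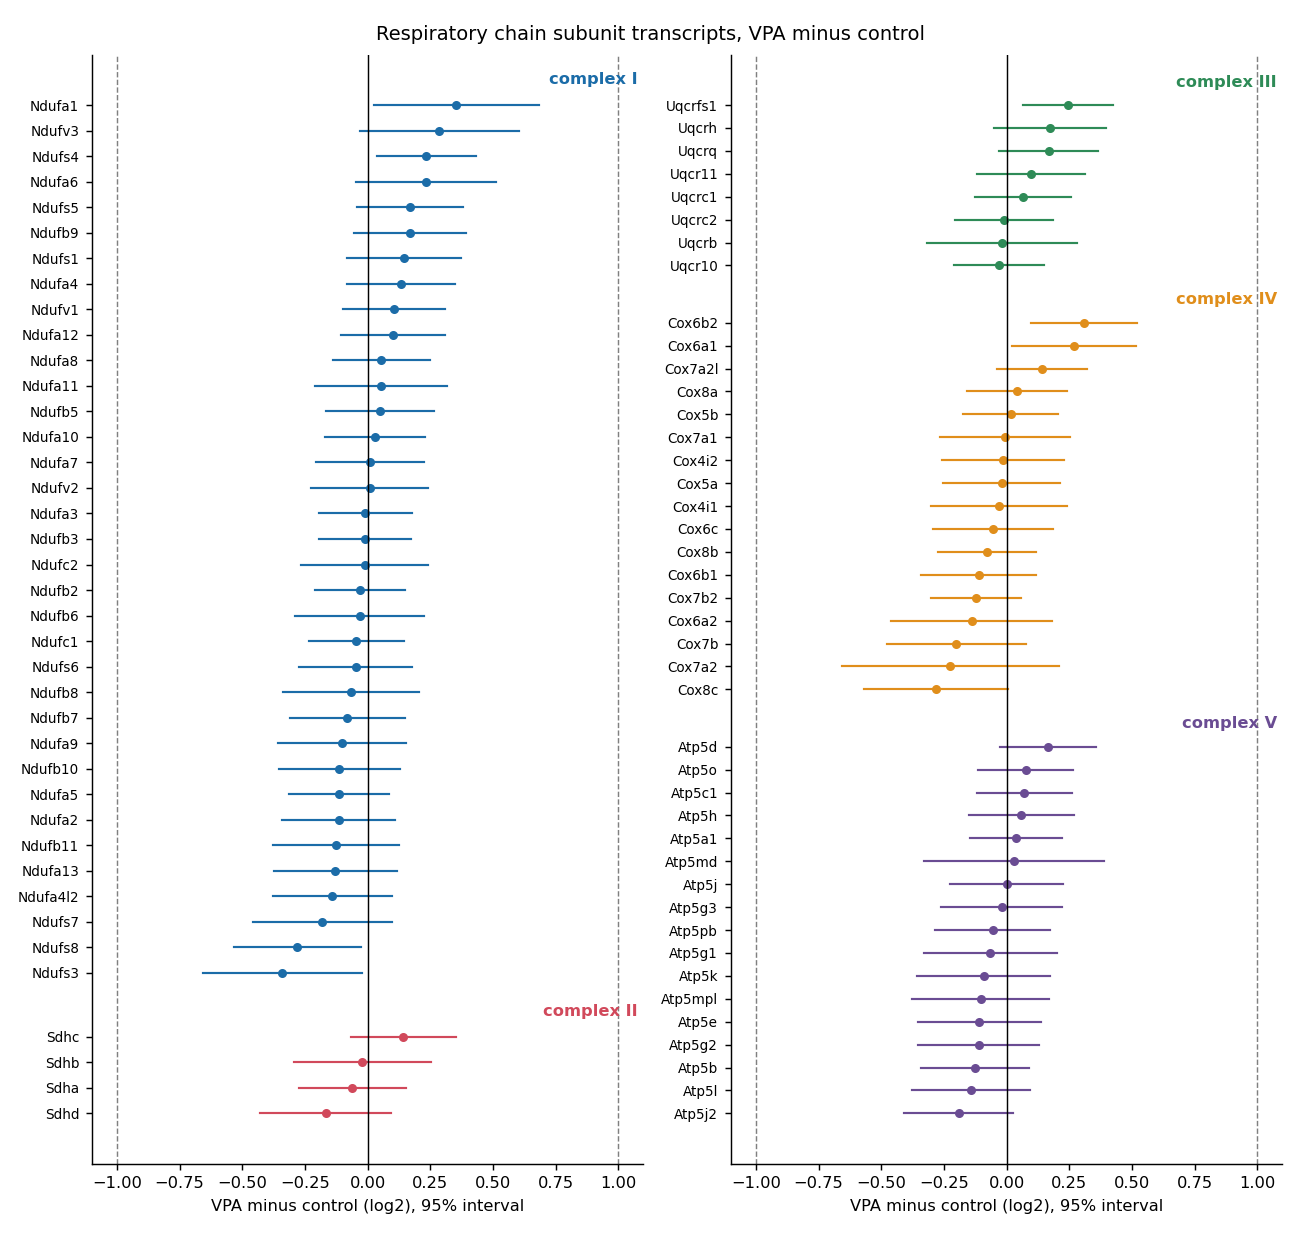
VPA minus control difference of each of the 81 members on the log2 scale (points), with its 95% interval (lines), by complex; dashed lines mark differences of -1 and 1, a 2-fold change. Differences lie between -0.34 and 0.35, and no interval reaches a dashed line, which also held for 19603 of all 19938 genes tested.

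**Figure D3:**
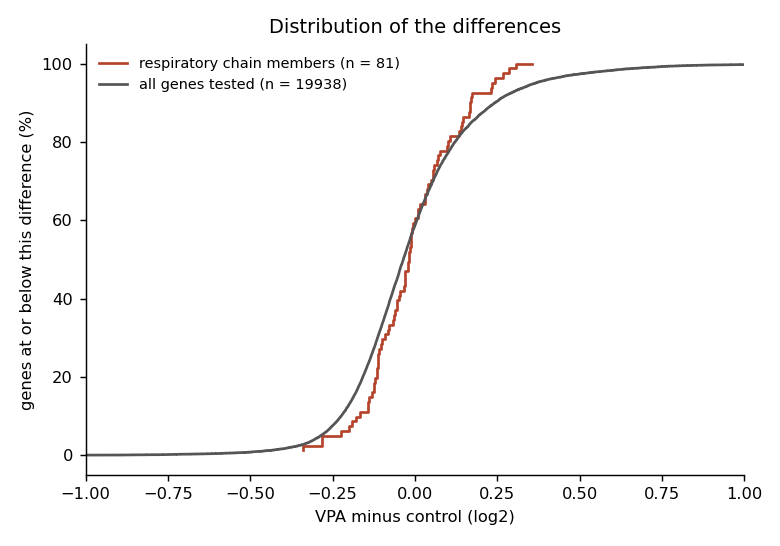
Percent of genes (vertical axis) at or below each VPA minus control difference (log2, horizontal axis), for the 81 members and for all 19938 genes tested, drawn from -1 to 1. The members' curve is steeper, with an SD of 0.139 against 0.215 for all genes, and both medians are near 0, at -0.02 and -0.04.

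Member transcripts shifted together between the VPA arrays. The members' median deviation from their 6-array mean (log2) was -0.10, -0.01 and 0.10 in VPA replicates 1, 2 and 3, against 0.04, -0.005 and -0.003 in control replicates 1, 2 and 3. Over all genes tested the same medians were 0.01, -0.04 and -0.003 in VPA and 0.02, -0.005 and 0.01 in control arrays. VPA replicate 1 was the lowest of the 6 arrays in 37 members (45.7%, against 15.7% of all genes), and VPA replicate 3 was the highest in 35 (43.2%, against 10.2%). VPA replicate 3 exceeded VPA replicate 1 in 68 of 81 members (84.0%, against 46.2% of all genes), by a median of 0.20. Between control arrays the most uneven split was 28 of 81, for control replicate 3 above control replicate 1.

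The gap between VPA replicates 1 and 3 appeared in the medians of all 5 complexes. Complex I had medians of -0.07, -0.003 and 0.10 in VPA and 0.03, 0.005 and -0.003 in control arrays, and complex II had -0.17, -0.06 and 0.12 in VPA and 0.09, 0.04 and 0.001 in control arrays. Both had VPA replicate 1 lowest and VPA replicate 3 highest. Complex V had medians of -0.16, -0.02 and 0.10 in VPA and 0.05, -0.01 and 0.01 in control arrays, and complex IV had -0.11, -0.05 and 0.10 in VPA and 0.05, -0.04 and 0.04 in control arrays. In complex III, VPA replicates 2 and 3 were at 0.08 and 0.11 and replicate 1 at -0.01, with control medians of -0.05, 0.004 and -0.06. Without VPA replicate 1 the members' median difference was 0.04, and 0 members were called by limma. At an unadjusted p under 0.05 there were then 6 members (7.41%, against 13.7% of all genes). Without VPA replicate 3 the members' median difference was -0.05, and 0 were called, with 12 at an unadjusted p under 0.05 (14.8%, against 20.7% of all genes). What sets these 2 arrays apart in these genes was not tested.

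**Figure D4:**
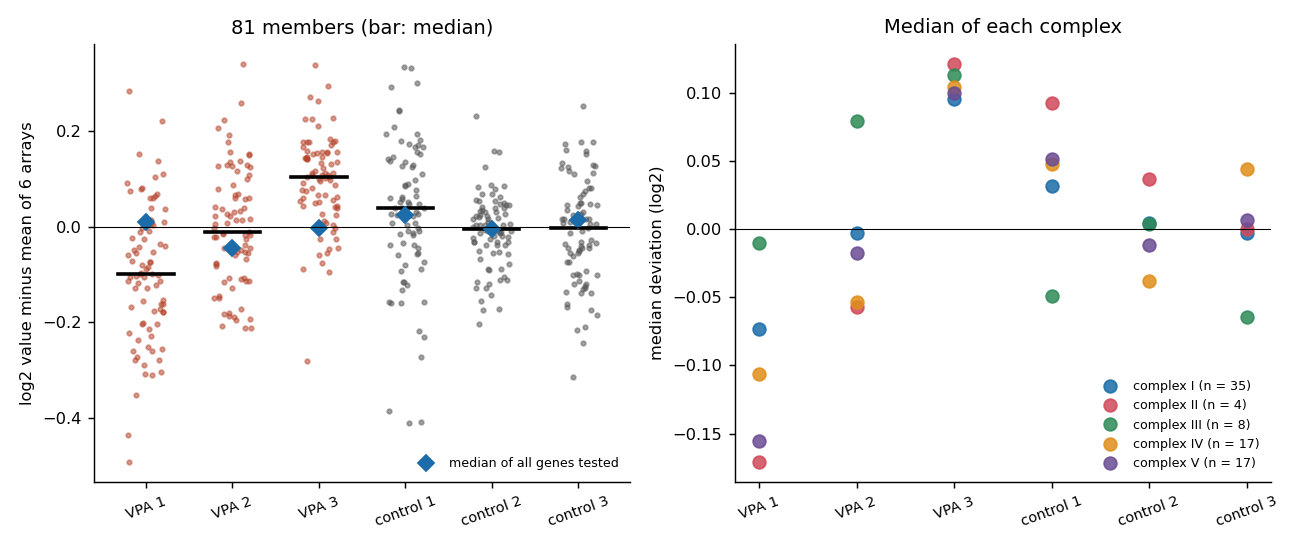
Log2 value minus the mean of the 6 arrays in each array, VPA arrays left and control arrays right: each of the 81 members with their median as a bar and the median of all genes as a diamond (left panel), and the median of each complex (right panel). Member medians were -0.10, -0.01 and 0.10 in VPA replicates 1 to 3 and between -0.005 and 0.04 in control arrays.

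In complex I, which oxidises NADH, 0 of 35 members passed limma's test, and 16 differences were positive and 19 negative. At an unadjusted p under 0.05 there were 4 members (11.4%, against 18.1% of all genes). The 6 measured members of the catalytic core, which is conserved from bacteria, did not share a direction. Ndufs3, a core subunit, had log2 values of 9.39, 9.64 and 9.94 in VPA arrays and 10.16, 9.85 and 9.99 in control arrays, a difference of -0.34 (SE 0.141, adjusted p = 0.243). Ndufs8, which holds iron-sulphur clusters on the way to ubiquinone, was at 8.38, 8.46 and 8.69 in VPA arrays and 8.95, 8.65 and 8.77 in control arrays, a difference of -0.28 (SE 0.113, adjusted p = 0.228). For both genes VPA replicate 1 was the lowest array and VPA replicate 3 overlapped the control values. The core members Ndufs7, Ndufv2, Ndufv1 and Ndufs1 differed by -0.18, 0.01, 0.11 and 0.15.

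The accessory subunits of complex I surround the core and serve its assembly and stability. Ndufs4, an accessory subunit whose loss causes Leigh syndrome, had 9.94, 10.06 and 10.14 in VPA arrays and 9.85, 9.76 and 9.83 in control arrays, a difference of 0.23 (SE 0.0876, adjusted p = 0.198). It was the only complex I member whose groups did not overlap (1 of 35, 2.86%, against 23.1% of all genes). Ndufa1, an X-linked subunit needed for assembly, had 9.72, 9.77 and 9.34 in VPA arrays and 9.02, 9.49 and 9.26 in control arrays, a difference of 0.35 (SE 0.146, adjusted p = 0.241). Its lowest VPA value lay below the highest control value. Ndufv3, a subunit of the NADH-binding module, had 10.01, 10.37 and 10.38 in VPA arrays and 9.70, 10.14 and 10.07 in control arrays, a difference of 0.29 (adjusted p = 0.320). Its values overlapped between groups through VPA replicate 1. Ndufa3, another accessory subunit, differed by -0.01.

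Ndufa4 carries a complex I name but its protein is now assigned to complex IV. It had 11.86, 11.68 and 11.83 in VPA arrays and 11.75, 11.52 and 11.69 in control arrays, a difference of 0.13 (adjusted p = 0.493). Its hypoxia-induced relative Ndufa4l2 had 6.68, 6.57 and 6.31 in VPA arrays and 6.68, 6.64 and 6.67 in control arrays, a difference of -0.14 (adjusted p = 0.510). Neither pair of groups was separate. The remaining complex I members differed by -0.13 to 0.23.

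In complex II, succinate dehydrogenase, which links the tricarboxylic acid cycle to the chain, 0 of 4 members passed limma's test. None had an unadjusted p under 0.05 (0%, against 18.1% of all genes). The flavoprotein Sdha had 11.07, 11.19 and 11.34 in VPA arrays and 11.32, 11.27 and 11.20 in control arrays, a difference of -0.06. The iron-sulphur subunit Sdhb had 8.87, 8.97 and 9.27 in VPA arrays and 9.14, 8.90 and 9.12 in control arrays, a difference of -0.02. In both, the VPA values spread across the control values. The membrane anchors Sdhc and Sdhd differed by 0.14 and -0.17, with adjusted p of 0.451 and 0.477 in limma's test. Sdhc had 11.28, 11.24 and 11.08 in VPA arrays and 10.97, 11.16 and 11.04 in control arrays. Sdhd had 9.63, 9.86 and 10.07 in VPA arrays and 10.10, 9.98 and 9.97 in control arrays, so the anchors overlapped between groups as well.

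In complex III, which passes electrons from ubiquinol to cytochrome c, 0 of 8 members passed limma's test. At an unadjusted p under 0.05 there was 1 member (12.5%, against 18.1% of all genes). Of the 8 differences, 5 were positive and 3 negative. The median difference was 0.08, against -0.04 over all genes. Cytochrome c1 (Cyc1) is not among these 8 and is given below with the electron carriers. Uqcrfs1, the Rieske iron-sulphur protein, had 8.89, 8.94 and 8.97 in VPA arrays and 8.72, 8.64 and 8.71 in control arrays, a difference of 0.24 (SE 0.0804, adjusted p = 0.152). Its groups did not overlap, and the values within each group were close, with SDs of 0.04 in VPA and 0.05 in control arrays. Uqcrq, a small subunit, had 8.94, 9.10 and 9.05 in VPA arrays and 8.83, 8.95 and 8.81 in control arrays, a difference of 0.17 (adjusted p = 0.355). Uqcrh, the hinge subunit near cytochrome c, had 9.93, 10.10 and 10.15 in VPA arrays and 9.76, 9.99 and 9.92 in control arrays, a difference of 0.17 (adjusted p = 0.395). For both, only 1 VPA value reached into the control range. The core protein Uqcrc2 and the subunit Uqcrb differed by -0.01 and -0.02, and Uqcrc1, Uqcr10 and Uqcr11 by 0.07, -0.03 and 0.10.

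In complex IV, cytochrome c oxidase, 0 of 17 members passed limma's test, and 5 differences were positive and 12 negative. At an unadjusted p under 0.05 there were 2 members (11.8%, against 18.1% of all genes). Cox6b2, the isoform of subunit VIb typical of testis, had 7.87, 7.96 and 8.13 in VPA arrays and 7.67, 7.74 and 7.62 in control arrays. The mean was 7.98 ± 0.13 in VPA and 7.68 ± 0.06 in control arrays (SD, n = 3 each), a difference of 0.31 (SE 0.0941, 1.24-fold, limma adjusted p = 0.128). Its VPA arrays all lay above its control arrays. The somatic form Cox6b1 had 9.94, 9.86 and 10.15 in VPA arrays and 10.15, 9.99 and 10.15 in control arrays, a difference of -0.11 (adjusted p = 0.595), and its groups overlapped. Cox6a1, the liver-type form of subunit VIa, had 10.11, 10.25 and 10.14 in VPA arrays and 9.87, 10.10 and 9.72 in control arrays, a difference of 0.27 (SE 0.110, adjusted p = 0.236). Its lowest VPA value stood just above its highest control value. The heart and muscle form Cox6a2 differed by -0.14 (adjusted p = 0.633), with 7.43, 7.48 and 7.95 in VPA arrays and 7.81, 7.60 and 7.87 in control arrays.

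The other isoform pairs gave no separated forms except Cox7b2. For subunit IV, the widespread form Cox4i1 differed by -0.03 and the lung form Cox4i2 by -0.01. For subunit VIIa, the heart and muscle form Cox7a1 differed by -0.01. The widespread form Cox7a2 had 8.61, 8.92 and 9.44 in VPA arrays and 9.39, 8.97 and 9.27 in control arrays, a difference of -0.22 (SE 0.193, adjusted p = 0.568). Cox7a2 was the most variable of all 81 members, with a pooled SD of 0.335 and a range of 0.832 among VPA arrays, so its interval was the widest, from -0.66 to 0.21. For subunit VIIb, Cox7b had 9.19, 9.43 and 9.70 in VPA arrays and 9.67, 9.59 and 9.67 in control arrays, a difference of -0.20 (adjusted p = 0.421). Its testis-typical relative Cox7b2 had 4.63, 4.61 and 4.58 in VPA arrays and 4.71, 4.69 and 4.78 in control arrays, a difference of -0.12 (adjusted p = 0.451). All VPA values of Cox7b2 lay below all control values, at a log2 level for which no detection call is given. For subunit VIII, the widespread form Cox8a differed by 0.04 and the heart and muscle form Cox8b by -0.08. Cox8c, a testis form, had 6.60, 6.69 and 6.93 in VPA arrays and 7.22, 6.80 and 7.06 in control arrays, a difference of -0.28 (adjusted p = 0.284), and its groups overlapped.

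Cox7a2l is a relative of subunit VIIa that joins complexes III and IV into supercomplexes. It had 9.82, 9.82 and 9.83 in VPA arrays and 9.72, 9.72 and 9.62 in control arrays, a difference of 0.14 (SE 0.0803, adjusted p = 0.389). The groups did not overlap and the VPA arrays were nearly identical. Of the 8 tissue-restricted isoforms in complexes I and IV, 1 difference was positive (Cox6b2) and 7 were negative, with a median of -0.10. The share above 0 was 12.5%, against 41.4% of all genes. Their means in VPA arrays were low, from 4.60 (Cox7b2) to 7.98 (Cox6b2), and a trait of such isoforms was not tested.

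**Figure D5:**
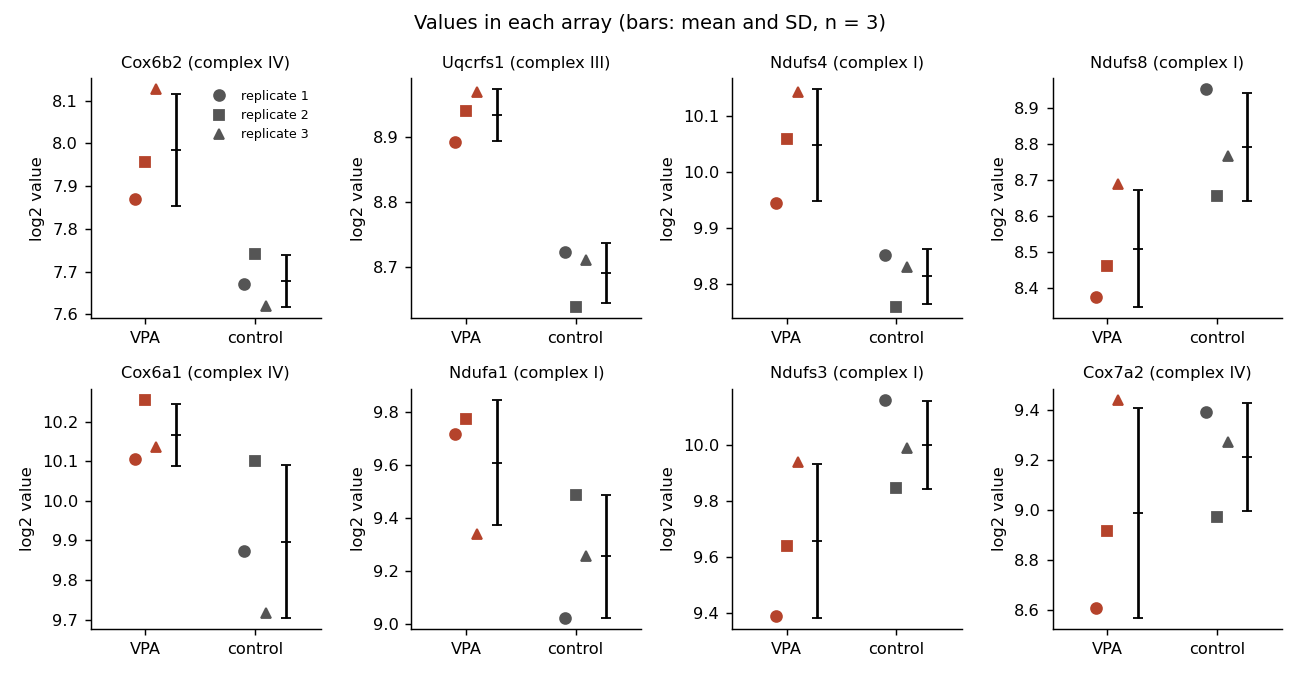
Log2 value of 8 members in each array, VPA left and control right, with symbols for replicate numbers and bars for mean and SD (n = 3 each). VPA arrays stand wholly above control arrays for Cox6b2, Uqcrfs1, Ndufs4 and Cox6a1 and overlap them for Ndufs8, Ndufa1, Ndufs3 and Cox7a2.

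In complex V, ATP synthase, 0 of 17 members passed limma's test, and 6 differences were positive and 11 negative. None had an unadjusted p under 0.05 (0%, against 18.1% of all genes). The F1 head turns ADP into ATP. Its delta subunit Atp5d, part of the central stalk, had 12.40, 12.38 and 12.48 in VPA arrays and 12.26, 12.33 and 12.17 in control arrays, a difference of 0.16 (SE 0.0847, adjusted p = 0.344). Its groups did not overlap. The catalytic beta subunit Atp5b differed by -0.13 and the alpha subunit Atp5a1 by 0.04, with adjusted p of 0.518 and 0.839.

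The membrane part of complex V carries the proton path. Its subunit f, Atp5j2, had 10.28, 10.46 and 10.52 in VPA arrays and 10.71, 10.60 and 10.52 in control arrays, a difference of -0.19 (SE 0.0971, adjusted p = 0.336). VPA values were below control values, although the highest VPA and lowest control array were both at 10.52 after rounding. Subunit g, Atp5l, had 8.59, 8.93 and 8.88 in VPA arrays and 8.92, 8.90 and 9.002 in control arrays, a difference of -0.14, and its groups overlapped. Atp5g1, Atp5g2 and Atp5g3 encode the same mature c-ring protein and differed by -0.07, -0.11 and -0.02. Atp5j, coupling factor 6 of the stalk, had 12.22, 12.37 and 12.44 in VPA arrays and 12.48, 12.34 and 12.22 in control arrays, and its means of 12.34 and 12.35 were within 0.01 of each other.

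Where several probe sets read a member, their differences were compared. There were 16 such members with 40 probe sets, and the sign was shared in 12 and differed in 4. Both probe sets of Ndufs3 were negative, at -0.34 and -0.27, and both of Cox7a2l were positive, at 0.14 and 0.26. The 6 probe sets of Atp5l ran from -0.14 to -0.08. The members whose probe sets differed in sign were Atp5g1, Atp5md, Ndufa11 and Uqcr11, with differences between -0.07 and 0.10. Many of these genes have near-identical processed copies in the genome that could share probes, so values of single members are uncertain to that extent.

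Genes outside the member rule that belong to or serve the chain were read from lists. The share of each list at an unadjusted p under 0.05 is set beside the 18.1% of all genes tested. Assembly factors of complex I had no called gene among 16 measured, but 5 were above and 0 below control at an unadjusted p under 0.05 (31.3%, against 18.1%), with a median difference of 0.10. Ndufaf7, a methyltransferase needed for complex I assembly, had 10.10, 10.11 and 9.93 in VPA arrays and 9.64, 9.73 and 9.63 in control arrays, a difference of 0.38 (SE 0.0886, adjusted p = 0.0607). Tmem126b, a membrane factor of the intermediate assembly complex, had 9.34, 9.33 and 9.38 in VPA arrays and 8.78, 9.09 and 8.98 in control arrays, a difference of 0.40 (SE 0.0967, adjusted p = 0.0665). Both had all VPA arrays above all control arrays, and both passed under 4 of 13 alternative settings, with adjusted p from 0.0345 to 0.212 for Ndufaf7 and from 0.0363 to 0.228 for Tmem126b. Assembly factors of complexes II to V had 0 called of 32, with 3 above and 0 below control at an unadjusted p under 0.05 (9.38%, against 18.1%) and a median of 0.03. Bcs1l, which inserts the Rieske protein into complex III, had 9.53, 9.45 and 9.53 in VPA arrays and 8.9996, 9.26 and 9.11 in control arrays, a difference of 0.38 (adjusted p = 0.0692, and 0.0471 to 0.236 over the alternatives, 2 of 13 of which called it). Sdhaf3, a factor for complex II, differed by 0.31 (adjusted p = 0.143).

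Electron carriers and coenzyme Q synthesis had 0 called of 20, with 1 above and 1 below control at an unadjusted p under 0.05 in limma's test (10%, against 18.1%). Etfdh, which feeds electrons from fatty acid oxidation to ubiquinone, had 11.51, 11.44 and 11.53 in VPA arrays and 11.06, 11.21 and 11.16 in control arrays, a difference of 0.35 (adjusted p = 0.0667, and 0.0348 to 0.228 over the alternatives). Its groups did not overlap, and Coq10a, a coenzyme Q binding protein, differed by -0.25 (adjusted p = 0.188). Cyc1, cytochrome c1, is a subunit of complex III on this list, and its symbol falls outside the member rule. Cyc1 differed by 0.23 (limma adjusted p = 0.289), with all VPA arrays above all control arrays. The tricarboxylic acid cycle had 0 called of 20, with 3 above and 0 below control at an unadjusted p under 0.05 (15%, against 18.1%), and a median of 0.08. Idh3a, a subunit of NAD-dependent isocitrate dehydrogenase, and Cs, citrate synthase, differed by 0.37 and 0.28 (adjusted p = 0.0863 and 0.146), and neither passed. Idh3a was called in 2 of 13 alternatives, with adjusted p from 0.0361 to 0.252.

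Regulators of mitochondrial biogenesis had 0 called of 21, with 1 above and 2 below control at an unadjusted p under 0.05 (14.3%, against 18.1%). Gabpb2, a partner of the ETS protein GABP, differed by -0.24 (adjusted p = 0.156), and the receptor Esrrb by -0.20 (adjusted p = 0.220). Uncoupling and oxidant defence genes had 0 called of 17, with 2 above and 4 below control at an unadjusted p under 0.05 (35.3%, against 18.1%). Aox1, aldehyde oxidase, is 1 of these 4, although it is itself not an uncoupling or oxidant defence gene. It had 7.44, 7.71 and 7.41 in VPA arrays and 8.15, 8.69 and 7.96 in control arrays, a difference of -0.75 (adjusted p = 0.0581, and 0.00594 to 0.237 over the alternatives). Txnrd2, the mitochondrial thioredoxin reductase, differed by -0.39 (adjusted p = 0.103, and 0.0399 to 0.316 over the alternatives), and was called only without VPA replicate 3, at -0.49. Of the mitochondrially encoded subunits, ND3 and COX2 were measured and differed by -0.12 and 0.04, and neither passed.

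The cell type could be checked only by the level of marker lists, since the files hold no detection call. The mean log2 level over 11 prostate epithelial markers was 6.46 to 6.51 in VPA arrays and 6.46 to 6.56 in control arrays, with 0 called in limma's test and 1 higher at an unadjusted p under 0.05 (9.09%, against 18.1% of all genes). These list means lay below the medians over all probe sets of the arrays, which ran from 7.15 to 7.18. Means of single markers in control arrays ran from 3.55 (Pbsn) to 7.88 (Hoxb13). Epcam, an epithelial adhesion protein, differed by 0.29 and Krt8, a luminal keratin, by -0.31 (adjusted p = 0.10 and 0.323). Epcam means were 6.14 in VPA and 5.84 in control arrays, and Krt8 means 7.44 and 7.75. Which cells the samples hold was not tested. Over 11 pluripotency markers the mean level was 6.62 to 6.79 in VPA arrays and 6.84 to 6.98 in control arrays, with 0 called and 4 lower at an unadjusted p under 0.05 (36.4%, against 18.1%). The list mean does not show single genes. Sox2, a factor of stem and progenitor cells, had 10.98, 11.25 and 11.53 in VPA arrays and 11.53, 11.48 and 11.71 in control arrays, and Klf4, a factor also made in epithelia, had 10.33, 10.35 and 10.31 in VPA arrays and 10.10, 10.47 and 10.09 in control arrays. Pou5f1, a defining factor of pluripotent cells, had 4.99, 5.50 and 5.31 in VPA arrays and 5.47, 5.57 and 5.86 in control arrays. These 3 overlapped between the groups, and were chosen after their values were seen. Of all 11 differences, 10 were negative and 1 positive (9.09% positive, against 41.4% of all genes). The muscle and leukocyte lists given below had 0 positive differences of 12 and 0 of 7. The mean levels of the pluripotency list, like those of the prostate list, lay below the array medians of 7.15 to 7.18. In 4 of the 11 pluripotency markers all VPA arrays lay below all control arrays, and in 0 above (36.4% separate, against 23.1% of all genes). Fgf4, a growth factor of pluripotent cells, differed by -0.33 (limma adjusted p = 0.0997), with means of 6.94 in VPA and 7.28 in control arrays.

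Among 8 fibroblast markers 1 lay above and 1 below control at an unadjusted p under 0.05 (25%, against 18.1% of all genes). Thy1, a surface glycoprotein also made by neurons, was higher with VPA (0.99, adjusted p = 0.00973). Pdgfrb, a growth factor receptor, had 9.82, 9.61 and 9.69 in VPA arrays and 10.06, 10.18 and 9.95 in control arrays, a difference of -0.36 (adjusted p = 0.0923), and its groups did not overlap. Among 7 leukocyte markers Cd53, a tetraspanin, was lower (-0.88, adjusted p = 0.0373), and it alone had an unadjusted p under 0.05 (14.3%, against 18.1%). Mean levels were 9.08 to 9.29 in VPA and 8.98 to 9.14 in control arrays for fibroblast markers, and 6.20 to 6.35 in VPA and 6.47 to 6.57 in control arrays for leukocyte markers. Single fibroblast markers had means in control arrays from 4.16 (Lum) to 14.1 (Dcn). Cd53 had a mean of 9.96 in control arrays. The other leukocyte markers had control means from 5.38 (Lyz2) to 6.92 (Cd3e), below the array medians of 7.15 to 7.18. The 12 muscle markers, of tissue that makes the heart and muscle isoforms, had 0 called, with 0 above and 3 below control at an unadjusted p under 0.05 (25%, against 18.1%). Their mean levels were 6.60 to 6.79 in VPA and 6.70 to 6.92 in control arrays, below the array medians of 7.15 to 7.18. Single muscle markers had means in control arrays from 5.42 (Myh1) to 7.94 (Acta1). Myh2 and Myh1, muscle myosins, differed by -0.26 and -0.23 (adjusted p = 0.215 and 0.231). The part of such cells in the subunit values was not tested, and in bulk RNA fewer cells of a type and less RNA per cell cannot be told apart.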

How the data were processed

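Total RNA was extracted, treated with DNase I and labelled with biotin for the arrays, per the labels' protocols. The authors deposited log2 values, and the submitters' processing notes name RMA and the Affymetrix Expression Console as tools. Their versions and a genome build are not named there. Array medians ran from 7.15 to 7.18, and RMA leaves no measure of signal over background. The 3 arrays per group limit the precision.

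Of 35556 probe sets, 21789 carried exactly 1 gene symbol, 1621 carried several, and 12146 have no entry in the platform annotation. Symbols were looked up in RefSeq by Entrez identifier (21698 matched, 0 changed). The probe set with the highest mean was kept for each of 19938 genes, with no filter on low values. Members had 105 probe sets. VPA was compared with control in limma 3.58.1 (R 4.3.3, lmFit and eBayes) with two-sided tests, group alone in the model, and Benjamini-Hochberg adjustment over all genes tested and a threshold of 0.05. The script was tested on simulated data. The alternatives were a filter on low genes (log2 minimum 6, 3 arrays or more), quantile normalization once more, centring on array medians, a trended robust prior, a block for the replicate number, the mean of probe sets, all probe sets, and each array left out in turn.

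Members and lists were chosen with earlier results of these data known. Members were named if called, by the 3 smallest p and 2 smallest differences in each complex, or as complex IV isoforms, c-ring genes, Ndufa4, Ndufa4l2 and Cox7a2l. Lists were represented by called genes or the 2 with the smallest p. Ndufs3, Ndufv3, Cyc1, Pdgfrb and members named for their role, promoter or probe sets were chosen after their values were seen. So were the genes named at the ends of a range of levels. Promoters not matched were not used here.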

Additional observations from a re-analysis of the deposited data

Results flagged for a closer look

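Probe sets that name 2 genes were left out of the member set, and 6 of the 30 unused member-like probe sets are of that kind. Among all 19938 genes tested, 2215 had all VPA arrays above all control arrays. The same held for 2 of the 30 unused probe sets. Both read Ndufb4, an accessory subunit of complex I, together with its near-identical copy Ndufb4b, and they were looked at because they show a difference outside the values compared. Probe set 10439398 had 11.24, 11.31 and 11.20 in VPA arrays and 10.98, 11.09 and 10.97 in control arrays, a log2 difference of 0.238 (limma adjusted p = 0.333 over all 35556 probe sets). Probe set 10462193 had 11.42, 11.51 and 11.41 in VPA arrays and 11.15, 11.26 and 11.14 in control arrays, a log2 difference of 0.261 (limma adjusted p = 0.300). Neither passed the test, and the 2 genes cannot be told apart by these probes.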

How the results depend on the processing

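Under all 13 alternatives, 7 with all arrays and 6 leaving out 1, limma called 0 members. The smallest adjusted p lay between 0.0715 (Ndufs3, without VPA replicate 3) and 0.311. At an unadjusted p under 0.05 there were 2 to 12 members (2.47% to 14.8%), where the share of all genes ran from 12.2% to 23.2%. In each alternative the members' share was below that of all genes. The median member difference stayed between -0.05 and 0.04. Over all genes, 467 calls became 645 of 15581 with the filter, 537 with a second quantile normalization or centring, 683 with the trended prior, 481 with the mean of probe sets and 2 with all probe sets. Leaving out an array gave 66, 72 and 815 without VPA replicates 1, 2 and 3, and 20, 515 and 71 without control replicates 1, 2 and 3. The replicate block gave 1199, again with 0 members (smallest adjusted p 0.0767, Ndufv3). Same-numbered arrays 1, 2 and 3 correlated at 0.084, 0.451 and 0.284 in their deviations from group means. Each VPA array correlated best with its same-numbered control array, while control replicate 1 correlated best with VPA replicate 3 (0.20). The series design names no pairing, so the main fit left the numbers out, and whether the arrays are pairs was not tested.

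Of 50 named members, 33 kept their sign in all alternatives and 17 did not in at least 1. Atp5j turned to 0.0225 with the second quantile normalization and 0.0117 with centring, and centring turned Cox7a1 to 0.00553, Ndufa3 to 0.00354 and Uqcrc2 to 0.00157. The mean of probe sets turned Atp5md to -5e-05. Leaving out single arrays moved differences across 0 for Atp5g1 (-0.167 to 0.0221), Atp5g3 (-0.0970 to 0.0508), Atp5j (-0.0649 to 0.0685), Cox4i1 (-0.151 to 0.0731), Cox4i2 (-0.133 to 0.0538), Cox7a1 (-0.104 to 0.0986), Cox8a (-0.0149 to 0.0770), Ndufa3 (-0.0419 to 0.0259), Ndufv2 (-0.0559 to 0.0892), Sdha (-0.131 to 0.005), Sdhb (-0.138 to 0.0638), Uqcrb (-0.113 to 0.129), Atp5k (-0.193 to 0.000712), Atp5md (-0.0997 to 0.182), Ndufa11 (-0.0537 to 0.165), Uqcr10 (-0.0556 to 0.0011), Uqcrc2 (-0.0386 to 0.0387) and the mitochondrial COX2 (-0.0214 to 0.0687). The cause was not tested. Of the 2 marker genes called, Thy1 lost its call in 1 alternative, with all probe sets (adjusted p 0.119, range 0.00339 to 0.119). Cd53 was called in 7 of 13 (range 0.0115 to 0.197) and lost its call with all probe sets and without VPA replicate 1, VPA replicate 2 or any single control replicate. With 3 arrays per group, differences near the standard error of 0.102 cannot be resolved.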
